A study of Homo sapiens with 2 samples.

Results

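HNRNPU, its neighbours on chromosome 1 and its relatives among the scaffold attachment factors are 9 genes: HNRNPU, HNRNPU-AS1, COX20, HNRNPUL1, HNRNPUL2, SAFB, SAFB2, SLTM and MATR3. They were chosen by gene symbol, as the target of an siRNA, the genes beside it and the proteins related to it, and all 9 were found among the 40205 rows of the deposited expression table. RNA was sequenced from the human colorectal carcinoma cell line RKO, an established line, given either an siRNA against hnRNPU (1 library) or a control siRNA (1 library). With 1 library per group there is no replicate, no test and no p-value. "Higher" and "lower" describe these libraries only, and intervals cover the counting of reads but not the variation between cultures. The labels name each siRNA only by its target, with no sequence. In such bulk samples, fewer cells of a type and less RNA per cell cannot be told apart.

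Heterogeneous nuclear ribonucleoprotein U, also called scaffold attachment factor A, is an abundant nuclear protein that binds DNA through an N-terminal SAP domain and RNA through a C-terminal arginine- and glycine-rich region. It holds chromatin-associated RNA on chromosomes and takes part in splicing. HNRNPUL1 and HNRNPUL2 encode paralogues of similar architecture that act in mRNA export and in the processing of broken DNA ends. SAFB, SAFB2 and SLTM encode proteins that join a SAP domain to an RNA recognition motif and repress transcription, among others at oestrogen receptor targets. MATR3 encodes matrin 3, an RNA-binding protein of the nuclear matrix that represses exons together with PTBP1. COX20, a neighbour with no known part in chromatin, encodes an inner-membrane chaperone of mitochondrial cytochrome c oxidase.

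Values are FPKM, fragments scaled to gene length and to the reads of the library, as the authors deposited them. Steps between low values placed 39807025 reads behind the hnRNPU siRNA library and 31801650 reads behind the control library. With these depths, 35.2% of 633 short RNA rows with hnRNPU siRNA and 34.6% of 636 with control siRNA came out within 1e-06 of a whole number. The other short RNA rows did not. The depths were taken from these same rows, so part of these shares is fixed by construction and they are no independent check. In the list of epithelial and colorectal markers, EPCAM stood at 13.7 FPKM in the hnRNPU siRNA library and 13.8 in the control library, KRT18 at 81.6 FPKM with hnRNPU siRNA and 88.1 with control siRNA, and KRT19 and CDH1 were listed at 0 in both. All 9 markers of fibroblasts, immune cells and endothelium lay at or below 0.0085 FPKM in both libraries. Genes were compared as the log2 ratio of (FPKM + 1), hnRNPU siRNA over control siRNA, and a gene counted as past 2-fold where that ratio reached 1 in either direction and the higher library held 5 FPKM or more. The added 1 FPKM understates differences of low genes. Of 7958 genes with that level, 60 were at least 2-fold lower with hnRNPU siRNA, a background of 0.754%, and 25 at least 2-fold higher, a background of 0.314%. The 9 genes were picked with earlier results of these data known, so their positions against this background are given as a description.

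HNRNPU, the target, is listed on chromosome 1 from 245013602 to 245027827 of GRCh37, on the minus strand. It had 75.4 FPKM in the hnRNPU siRNA library and 239 FPKM in the control library. The residual level was 31.5% of the control level, a log2 ratio of -1.65. The FPKM ratio of 0.315 had an exact 95% Clopper-Pearson counting interval of 0.310 to 0.320, on 20539 reads with hnRNPU siRNA and 52142 with control siRNA. The value could be written with a gene length of 6846 bases and whole reads in both libraries. Of the 8 genes in this group with at least 5 FPKM in a library, HNRNPU was the single one past 2-fold, and its log2 ratio was the 3rd lowest of all 7958 genes. None of the 8 was past 2-fold in the higher direction.

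**Figure D1:**
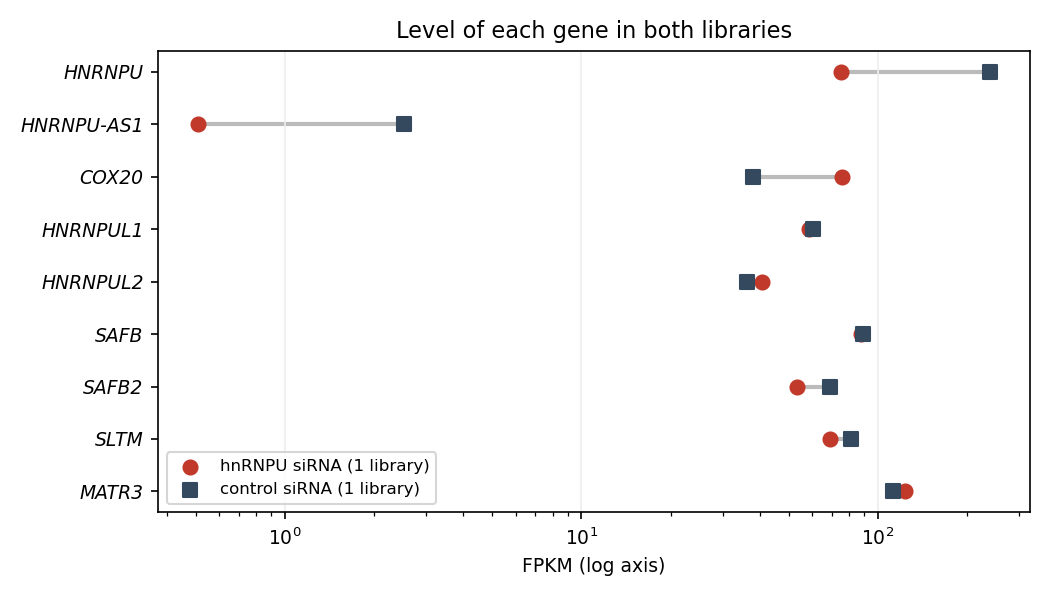
FPKM of the 9 genes on a log axis, with 1 point per library: circles for hnRNPU siRNA and squares for control siRNA. HNRNPU (75.4 against 239 FPKM) and HNRNPU-AS1 (0.508 against 2.52 FPKM) are lower and COX20 (75.5 against 38.0 FPKM) is higher with hnRNPU siRNA, while the points of the 6 relatives lie close together.

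The order of the levels differed between the libraries. In the hnRNPU siRNA library MATR3 stood first at 123 FPKM, before SAFB at 88.0, COX20 at 75.5 and HNRNPU at 75.4 FPKM. SLTM (69.2), HNRNPUL1 (58.4), SAFB2 (53.3) and HNRNPUL2 (40.6) came next, and HNRNPU-AS1 was last at 0.508 FPKM. In the control library HNRNPU stood first at 239 FPKM, above MATR3 at 113, SAFB at 89.3, SLTM at 81.5, SAFB2 at 69.1, HNRNPUL1 at 60.4, COX20 at 38.0, HNRNPUL2 at 36.4 and HNRNPU-AS1 at 2.52 FPKM. Neighbours in these orders had separate 95% counting intervals apart from COX20 and HNRNPU with hnRNPU siRNA (73.9 to 77.2 and 74.3 to 76.4 FPKM) and COX20 and HNRNPUL2 with control siRNA (36.7 to 39.4 and 35.4 to 37.3 FPKM). Among all rows of the table, HNRNPU ranked 826th by level with hnRNPU siRNA and 216th with control siRNA.

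HNRNPU-AS1, a noncoding row beside HNRNPU, had 0.508 FPKM in the hnRNPU siRNA library and 2.52 FPKM in the control library. These values rest on 102 reads with hnRNPU siRNA and 404 with control siRNA, over a length of 5045 bases. The FPKM ratio was 0.202 with a counting interval of 0.161 to 0.251, below the interval of HNRNPU. On the log2 scale of (FPKM + 1) the ratio was -1.22, less extreme than that of HNRNPU because the added 1 FPKM weighs more at this low level; with 0.1 FPKM added it was -2.11 and with 5 FPKM added -0.45. Its level per length was 0.674% of that of HNRNPU with hnRNPU siRNA and 1.05% with control siRNA. Counting rows that reach 1 FPKM in a library, 2 of the 9 genes were at least 2-fold lower, HNRNPU and HNRNPU-AS1, against a background of 0.711%, and none at least 2-fold higher, against 0.431%. RefSeq lists HNRNPU-AS1 as a synonym of HNRNPU, so these 2 rows may not be separate genes.

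The name of HNRNPU-AS1 goes against its listed position. The table puts it on the minus strand, from 245003940 to 245010243, which is the strand of HNRNPU itself and lies 3358 bases beyond its 3' end. In the RefSeq table of GRCh38.p14, HNRNPU-AS1 is listed as a synonym of HNRNPU, and no separate gene has that symbol. GENCODE 29 has no transcript of that name either. It gives HNRNPU 31 transcripts, of which 10 are protein coding, 10 retain introns and 9 are annotated as targets of nonsense-mediated decay, over a span of 23923 bases, against 14226 bases in the deposited table. The GENCODE 29 span of HNRNPU, chromosome 1 from 244840638 to 244864560 of GRCh38, overlaps that of COX20 by 4420 bases. RefSeq thus uses both symbols for 1 gene. Whether the reads of the HNRNPU-AS1 row came from longer HNRNPU transcripts was not tested.

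**Figure D2:**
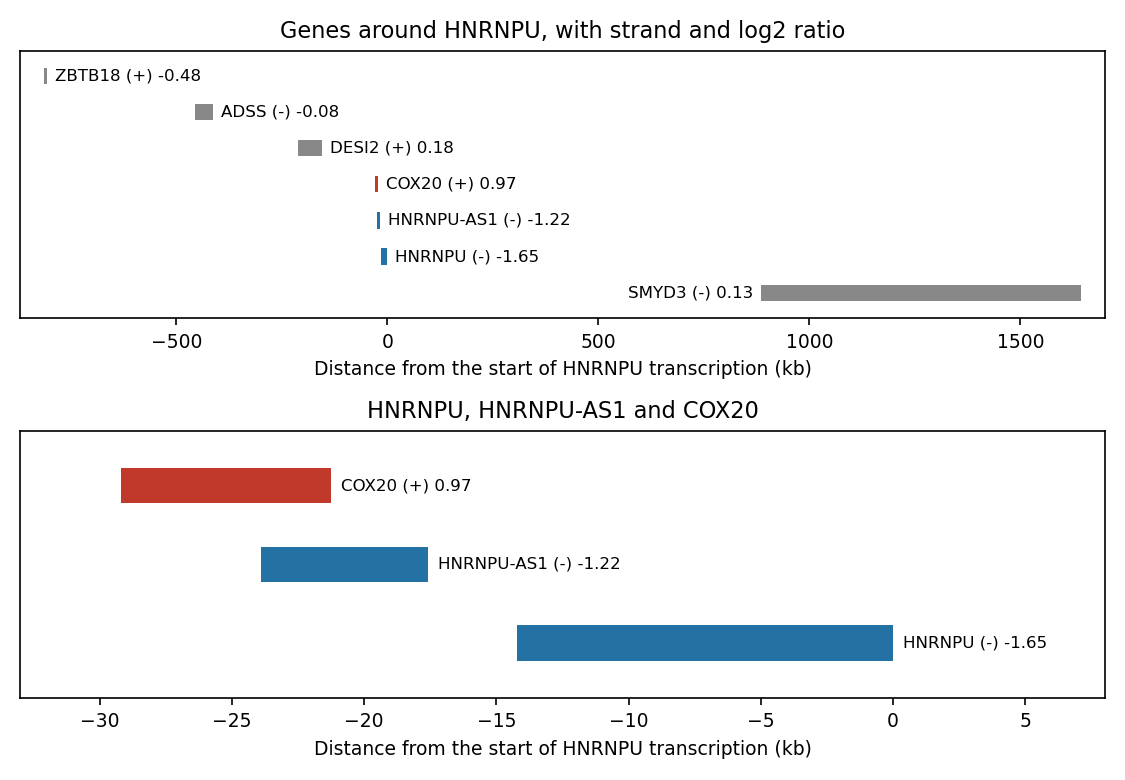
Listed spans around HNRNPU, drawn as distance in kb from the start of HNRNPU transcription, with strand and the log2 ratio of (FPKM + 1), for rows with a mean of at least 1 FPKM. Red bars have a log2 ratio of at least 0.5 and blue bars of at most -0.5. In the lower panel COX20 and HNRNPU-AS1 overlap on opposite strands, with log2 ratios of 0.97 and -1.22.

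COX20 was higher with hnRNPU siRNA, at 75.5 FPKM, against 38.0 FPKM with control siRNA. The FPKM ratio was 1.99 (counting interval 1.91 to 2.07) and the log2 ratio 0.97, just short of the 2-fold rule (1.003, past it, with an equal FPKM sum) and the 30th highest of 7958 genes. COX20 lies on the plus strand from 244998639 to 245006586 of GRCh37, points towards HNRNPU and ends 7015 bases short of it. Its span shares 2647 bases with that of HNRNPU-AS1. In GENCODE 29, 3362 of the 4954 words of 50 bases in COX20 transcripts (67.9%) also occur, on the opposite strand, in HNRNPU transcripts. No source used here says if strand was used in counting. Without strand, reads of COX20 and of its antisense partner cannot be told apart, and their part in this ratio was not tested. COX20 was higher and HNRNPU-AS1 lower with hnRNPU siRNA, and the level of COX20 per length was 149 times that of HNRNPU-AS1 with hnRNPU siRNA and 15.1 times with control siRNA.

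The recovered reads of COX20 were not whole: at a length of 2616 bases they came to 7864.5 with hnRNPU siRNA and 3161.5 with control siRNA, a form that dividing reads between genes would leave, which was not tested. A shorter length was also possible. The row that shares most COX20 sequence on the same strand is COX20P1, a processed pseudogene listed on chromosome 10 from 70392094 to 70392593 of GRCh37. COX20P1 shares 177 of the 4954 words of 50 bases in COX20 transcripts (3.57%). Its first 300 aligned bases and the first 300 coding bases of COX20 (GENCODE 29) are shown because they carry a limit on this value. Capitals mark the 5 positions that differ.

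COX20: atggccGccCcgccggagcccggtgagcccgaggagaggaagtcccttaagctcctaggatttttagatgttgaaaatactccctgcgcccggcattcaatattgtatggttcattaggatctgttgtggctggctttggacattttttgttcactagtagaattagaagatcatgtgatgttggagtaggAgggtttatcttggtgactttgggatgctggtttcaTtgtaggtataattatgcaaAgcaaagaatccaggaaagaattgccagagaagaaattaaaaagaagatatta
COX20P1: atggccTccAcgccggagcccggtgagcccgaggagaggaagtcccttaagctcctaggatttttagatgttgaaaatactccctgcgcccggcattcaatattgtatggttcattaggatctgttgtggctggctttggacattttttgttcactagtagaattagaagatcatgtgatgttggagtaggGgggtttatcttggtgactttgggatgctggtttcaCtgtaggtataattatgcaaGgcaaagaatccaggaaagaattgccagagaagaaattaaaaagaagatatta

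Over the 357 coding bases of COX20, the pseudogene differs at 6, an identity of 98.3%, and the longest identical stretch is 181 bases. COX20P1 itself was listed at 21.1 FPKM with hnRNPU siRNA and 12.2 FPKM with control siRNA, a log2 ratio of 0.74. It was looked up after its value was seen. With the reads of both rows added, the depth-scaled ratio was 1.97 (counting interval 1.89 to 2.05). COX20 supplied 7864.5 of the 8283.5 added reads with hnRNPU siRNA and 3161.5 of the 3356 with control siRNA. The summed ratio therefore had to lie near that of COX20 alone. At the lengths taken, the summed ratio does not depend on how reads were divided between these rows.

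Beyond these genes, 14 rows of the table start within 1 Mb of HNRNPU, and 4 of them had a mean of at least 1 FPKM. ADSS, which encodes adenylosuccinate synthase, had 22.2 FPKM with hnRNPU siRNA and 23.5 with control siRNA, a log2 ratio of -0.08. DESI2, a deSUMOylating isopeptidase gene, had 17.2 FPKM with hnRNPU siRNA and 15.02 with control siRNA (0.18). SMYD3, a lysine methyltransferase gene, had 17.2 FPKM with hnRNPU siRNA and 15.7 with control siRNA (0.13). ZBTB18, a zinc finger repressor gene, had 1.85 FPKM with hnRNPU siRNA and 2.96 with control siRNA (-0.48), on 157 reads with hnRNPU siRNA and 201 with control siRNA. None of the 4 had a 2-fold difference, beside 0.711% of all genes with 1 FPKM in a library that were 2-fold lower and 0.431% higher. ZBTB18 lay under the 5 FPKM that the 2-fold rule asks for. Of all rows of this region with a mean of at least 1 FPKM, COX20 had the highest log2 ratio and HNRNPU the lowest. With 0.1 FPKM added, HNRNPU-AS1 was the lower, at -2.11 against -1.67 for HNRNPU.

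The paralogues HNRNPUL1 and HNRNPUL2 differed little. HNRNPUL1, on chromosome 19 from 41770944 to 41813575 on the plus strand, had 58.4 FPKM with hnRNPU siRNA and 60.4 FPKM with control siRNA, a log2 ratio of -0.05 with a counting interval of the FPKM ratio of 0.939 to 0.996. HNRNPUL2, on chromosome 11 from 62480097 to 62494857 on the minus strand, had 40.6 FPKM with hnRNPU siRNA and 36.4 FPKM with control siRNA, a log2 ratio of 0.16 with a counting interval of 1.08 to 1.15. Neither paralogue shared a word of 50 bases with HNRNPU in GENCODE 29 on either strand.

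The make-up of this family differed between the libraries. The FPKM of HNRNPU, HNRNPUL1 and HNRNPUL2 summed to 174 with hnRNPU siRNA and 336 with control siRNA, and HNRNPU made up 43.2% of the sum with hnRNPU siRNA and 71.2% with control siRNA. The level of HNRNPU per length was 1.29 times that of HNRNPUL1 with hnRNPU siRNA and 3.96 times with control siRNA. The paralogues together came to 99.0 FPKM with hnRNPU siRNA and 96.8 FPKM with control siRNA, 102% of the control level. These sums and shares leave out HNRNPUL2-BSCL2, a row that shares sequence with HNRNPUL2 and is described next.

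HNRNPUL2 shares part of its transcript sequence with a second row. HNRNPUL2-BSCL2, a readthrough from HNRNPUL2 into BSCL2, is listed from 62457734 to 62494856 and had 38.3 FPKM with hnRNPU siRNA and 32.9 FPKM with control siRNA, a log2 ratio of 0.21. In GENCODE 29, 2342 of the 5416 words of 50 bases in HNRNPUL2 (43.2%) also occur in the readthrough. The recovered reads of HNRNPUL2 were not whole (8317.5 with hnRNPU siRNA and 5950.5 with control siRNA), and whether reads were divided between these rows was not tested. BSCL2 downstream, which encodes seipin and was looked up after its value was seen, had 2.84 FPKM with hnRNPU siRNA and 1.94 FPKM with control siRNA.

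**Figure D3:**
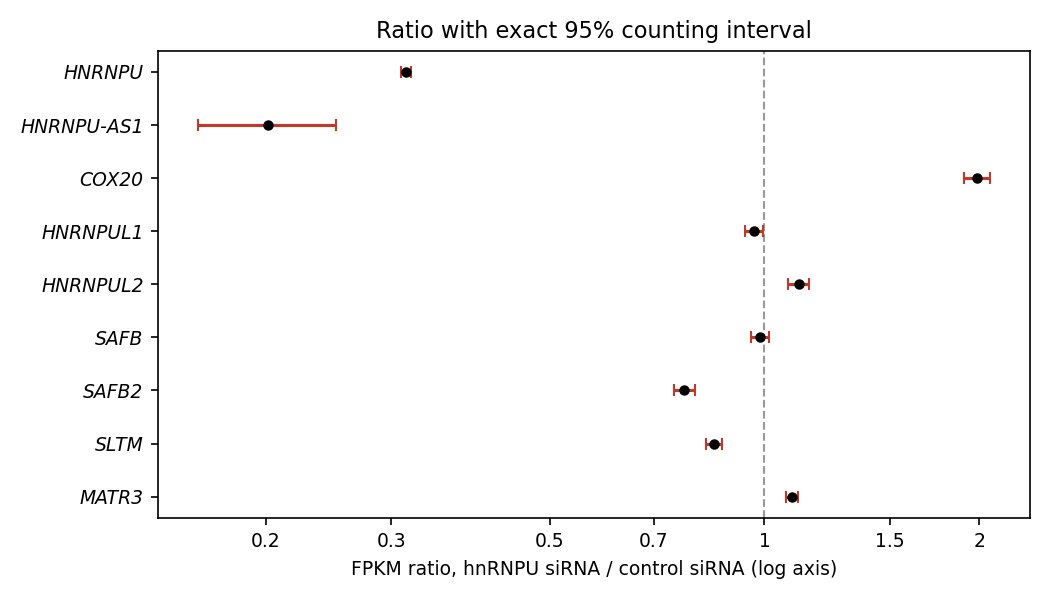
FPKM ratio of hnRNPU siRNA over control siRNA for the 9 genes on a log axis, with exact 95% counting intervals, which do not include variation between cultures. HNRNPU (0.315), HNRNPU-AS1 (0.202) and COX20 (1.99) lie apart from the 6 relatives, which run from 0.772 for SAFB2 to 1.12 for HNRNPUL2.

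SAFB and SAFB2, which lie head to head on chromosome 19, differed from each other. SAFB, from 5623046 to 5668489 on the plus strand, had 88.0 FPKM with hnRNPU siRNA and 89.3 FPKM with control siRNA. Its log2 ratio was -0.02, or 0.01 when both libraries were given an equal FPKM sum, and the counting interval of the FPKM ratio, 0.958 to 1.01, included 1. SAFB2, from 5587010 to 5622938 on the minus strand, had 53.3 FPKM with hnRNPU siRNA and 69.1 FPKM with control siRNA, a log2 ratio of -0.37 and a counting interval of 0.747 to 0.798. SAFB2 had the lowest ratio of the 6 relatives, at the 11.6th percentile of the 7958 genes, and its level per length was 60.6% of that of SAFB with hnRNPU siRNA and 77.3% with control siRNA.

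The listed spans of SAFB2 and SAFB are 107 bases apart, and in RefSeq on GRCh38.p14 their starts are 307 bases apart, at 5622776 and 5623083. The 194 bases that lie within 250 bases upstream of both RefSeq starts are shown, as both genes share this region and had unequal ratios. They are chr19:5622833-5623026, read on the plus strand from SAFB2 towards SAFB. Upstream holds for the RefSeq starts only. The GENCODE span of SAFB2 runs to 5624046, past the GENCODE start of SAFB at 5623035. Those spans overlap, and the shown bases lie inside that of SAFB2. Their place against the listed spans, which are on another build, was not tested.

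SAFB2-SAFB: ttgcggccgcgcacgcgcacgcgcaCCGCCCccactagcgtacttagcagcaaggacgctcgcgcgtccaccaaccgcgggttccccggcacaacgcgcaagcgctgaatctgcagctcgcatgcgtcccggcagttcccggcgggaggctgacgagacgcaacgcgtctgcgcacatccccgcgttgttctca

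Capitals mark the single match to GGGCGG, the GC box, here on the minus strand (CCGCCC); the motif occurs on either strand in 44.95% of the 35116 RefSeq promoter windows of 300 bases. TATAAA was in neither window and is in 11.5% of all windows. The shown stretch holds 69.1% G and C and 31 CpG dinucleotides, and 4.19% of all windows hold at least the 44 CpG dinucleotides found in each of the SAFB and SAFB2 windows.

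The transcripts of SAFB and SAFB2 are also alike, which bears on how their reads could be divided. In GENCODE 29 they share 603 words of 50 bases on the same strand, 8.19% of those of SAFB and 9.42% of those of SAFB2. The longest identical stretch of a SAFB and a SAFB2 transcript (SAFB-201 and SAFB2-201) holds 520 bases, at positions 736 to 1255 of the first and 891 to 1410 of the second, inside both coding sequences. Its first 300 bases, from which a short read fits both genes equally, read as follows.

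SAFB and SAFB2: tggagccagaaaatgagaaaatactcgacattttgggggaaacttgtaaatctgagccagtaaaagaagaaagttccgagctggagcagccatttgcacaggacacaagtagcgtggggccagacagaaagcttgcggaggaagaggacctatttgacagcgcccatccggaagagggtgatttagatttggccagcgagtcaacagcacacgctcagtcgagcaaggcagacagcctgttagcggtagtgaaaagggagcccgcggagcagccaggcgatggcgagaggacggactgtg

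The FPKM values of both genes could be written only with fractional reads, at lengths of 3112 bases for SAFB and 3318 for SAFB2. Shorter lengths were also possible for both. Added together at the lengths taken, the reads of both rows gave a depth-scaled ratio of 0.889 (counting interval 0.870 to 0.908). At these lengths it does not depend on the division between them. Other lengths would weight the rows differently, and these were not tried. Which of the genes carries the lower value is uncertain.

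SLTM, the more distant SAFB relative, had no such limit. It lies on chromosome 15 from 59171244 to 59225852 on the minus strand, its recovered length of 4147 bases equals that of its longest GENCODE 29 transcript, and none of its words of 50 bases was found in another gene of GENCODE 29. SLTM had 69.2 FPKM with hnRNPU siRNA and 81.5 FPKM with control siRNA, on 11430 reads with hnRNPU siRNA and 10748 with control siRNA. The log2 ratio was -0.23 and the counting interval of the FPKM ratio 0.827 to 0.872. The FPKM of SAFB, SAFB2 and SLTM summed to 211 with hnRNPU siRNA and 240 with control siRNA, 87.8% of the control level.

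MATR3, on chromosome 5 from 138629333 to 138667366 on the plus strand, had 123 FPKM with hnRNPU siRNA and 113 FPKM with control siRNA. Its log2 ratio was 0.13, with a counting interval of the FPKM ratio of 1.07 to 1.11. HNRNPU stood at 0.611 times the level of MATR3 with hnRNPU siRNA and at 2.12 times with control siRNA. MATR3 reads were also not whole, and 578 of its 14686 words of 50 bases in GENCODE 29 (3.94%) occur in SNHG4, a snoRNA host gene upstream. SNHG4, looked up after its value was seen, had 3.24 FPKM with hnRNPU siRNA and 2.98 FPKM with control siRNA, on a log2 ratio of 0.09.

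As a set, the 6 relatives (HNRNPUL1, HNRNPUL2, SAFB, SAFB2, SLTM and MATR3) had a median log2 ratio of -0.03, against 0.03 for all 7958 genes. Of the 6, 2 were above 0 and 4 below, beside 3671 of the 7958 genes below 0. All 6 lay within 0.5 of 0, as did 87.7% of the 7958 genes. They therefore lay where most genes lay. Their FPKM summed to 433 with hnRNPU siRNA and 450 with control siRNA, 96.3% of the control level.

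**Figure D4:**
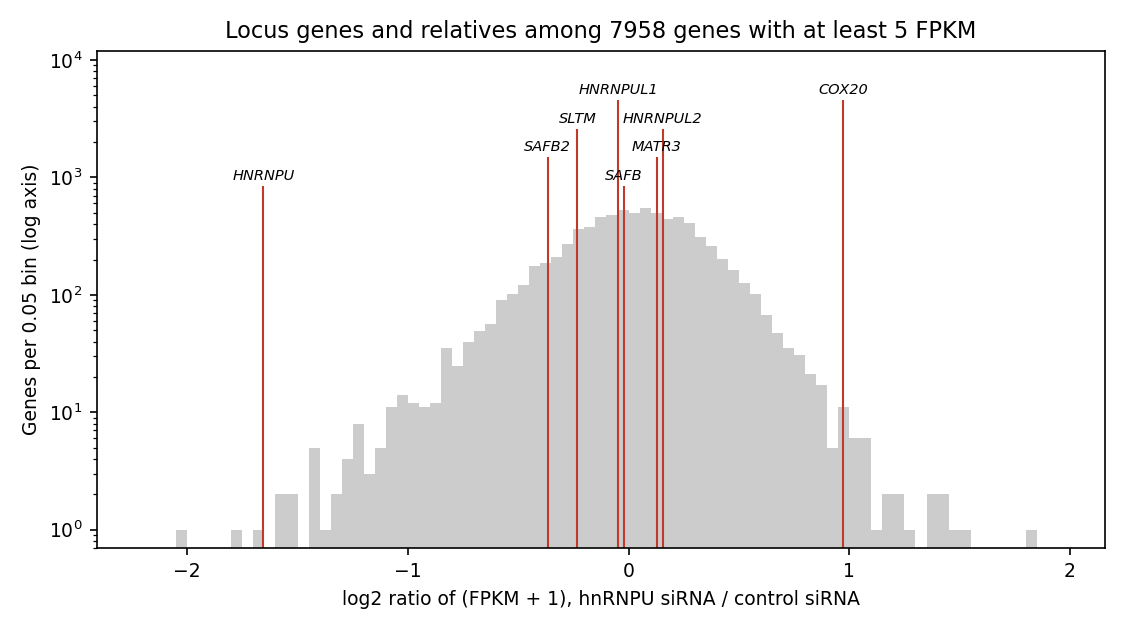
Histogram of the log2 ratio of (FPKM + 1), hnRNPU siRNA over control siRNA, for the 7958 genes that reach 5 FPKM in a library, on a log count axis. Red lines mark the 8 genes with that level: HNRNPU at -1.65 and COX20 at 0.97 lie in the tails, and the 6 relatives between -0.37 and 0.16.

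Other SAP domain genes were summarised beside them. Of 14 named, 13 had a mean of at least 1 FPKM, and their median log2 ratio was 0.06, against 0.00 for all 11567 genes with that mean, of which 5780 were above 0 and 5787 below. With under 1% of genes past 2-fold in either direction, 0.711% lower and 0.431% higher at 1 FPKM in a library, lists of this size with none past 2-fold are near the background. Of the 13, 8 were above 0, 5 below and none past 2-fold. The lowest were PIAS3, a SUMO ligase gene, at 2.27 FPKM with hnRNPU siRNA and 3.82 with control siRNA (-0.56), and CCAR1, a cell cycle and apoptosis regulator gene, at 51.9 FPKM with hnRNPU siRNA and 74.6 with control siRNA (-0.52). The highest were PIAS2, another SUMO ligase gene, at 9.75 FPKM with hnRNPU siRNA and 7.29 with control siRNA (0.37), and SARNP, an mRNA export factor gene, at 53.9 FPKM with hnRNPU siRNA and 42.7 with control siRNA (0.33).

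In the list of nuclear matrix proteins, which holds the lamins, 8 of 11 genes were below 0 and 3 above, with a median of -0.22 and none past 2-fold, beside 5787 of all 11567 genes below 0. SATB1, a matrix attachment region binding protein gene, was lowest at 3.02 FPKM with hnRNPU siRNA and 5.64 with control siRNA (-0.72), followed by NUMA1, a spindle pole and matrix protein gene, at 25.4 FPKM with hnRNPU siRNA and 34.6 with control siRNA (-0.43). AKAP8L, an anchoring protein gene, was highest at 31.1 FPKM with hnRNPU siRNA and 22.7 with control siRNA (0.44), before the lamin gene LMNB2 at 51.5 FPKM with hnRNPU siRNA and 41.6 with control siRNA (0.30). The other listed lamin genes, LMNA (-0.25) and LMNB1 (-0.22), were below 0 and are named with their values known. ZNF638, which like MATR3 encodes a protein with matrin-type zinc fingers and was picked out with its value known, had 30.0 FPKM with hnRNPU siRNA and 38.0 with control siRNA (-0.33).

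Among 11 RNA-processing partners of hnRNPU and matrin 3, 9 were above 0 and 2 below, with a median of 0.15 and none past 2-fold, beside 5780 of all 11567 genes above 0. SFPQ, a paraspeckle protein gene, was lowest at 83.8 FPKM with hnRNPU siRNA and 121 with control siRNA (-0.53), and HNRNPC, an hnRNP core protein gene, next at 171 FPKM with hnRNPU siRNA and 179 with control siRNA (-0.07). ILF2, a gene for a nuclear RNA-binding complex subunit, had 123 FPKM with hnRNPU siRNA and 103 with control siRNA (0.25). PTBP1, picked out after its value was seen, had 50.9 FPKM with hnRNPU siRNA and 45.8 with control siRNA (0.15).

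For COX20, the other genes of its pathway were set beside it. Of 21 other cytochrome c oxidase assembly factors, 14 were above 0 and 7 below, with a median of 0.22 and none past 2-fold, beside the same 5780 of 11567. COX20 at 0.97 was higher than each of the 21. COX11, a copper insertion factor gene, was next at 13.6 FPKM with hnRNPU siRNA and 7.03 with control siRNA (0.87), and SCO1, a copper chaperone gene, at 74.8 FPKM with hnRNPU siRNA and 45.5 with control siRNA (0.70). COX16 (-0.68) and COA5 (-0.34) were lowest. Of 10 nuclear-encoded subunits of the oxidase itself, 7 were below 0 and 3 above, beside 5787 of 11567, with a median of -0.15, from COX5B (-0.41) and COX8A (-0.37) to COX5A (0.02) and COX7A2 (0.06).

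**Figure D5:**
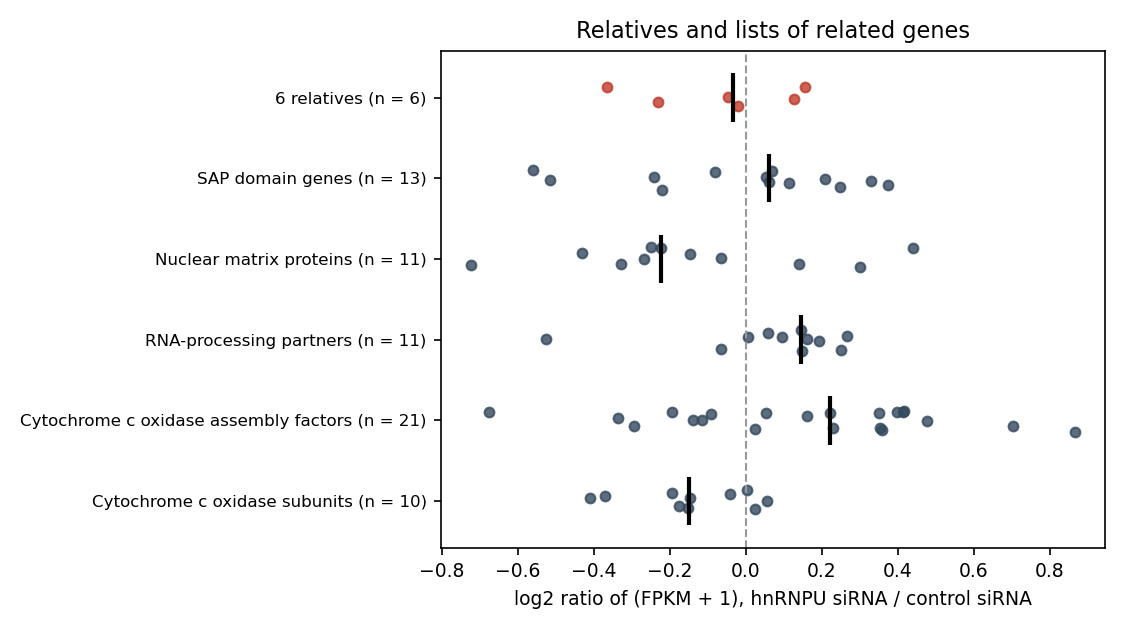
Log2 ratio of (FPKM + 1), hnRNPU siRNA over control siRNA, for the 6 relatives (red) and for 5 lists of related genes with a mean of at least 1 FPKM, 1 point per gene, with the median as a black bar. Medians run from -0.22 for nuclear matrix proteins to 0.22 for cytochrome c oxidase assembly factors, and no listed gene is past 2-fold.

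The rows whose pair of levels was nearest to that of HNRNPU, by distance in log2(FPKM + 1) over the 2 libraries, were MT1E, EIF4EBP1, TCEB2, MT1X and CALB2. MT1E, a metallothionein gene, was nearest at a distance of 0.16, with 81.3 FPKM with hnRNPU siRNA and 220 FPKM with control siRNA. Metallothionein genes form a family of similar copies, and whether MT1E and MT1X share reads with other members was not tested. The others lay 0.53 to 0.67 away. Over 2 libraries, likeness says only that the levels are similar.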

How the data were processed

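The deposited table held 1 FPKM column per library, computed by the authors, and 0 other value columns. Per the submitters' processing notes, Bowtie and GRCh37 were used. The annotation and the counting program were not given. Per the labels' protocols, RNA was harvested with Trizol, and columns were assigned to groups by the sample labels.

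Depth was taken from the commonest step of FPKM among RNAs spanning under 400 bases. Each value was expressed as whole reads over a length. Where the common denominator exceeded 1.2 times the longest GENCODE 29 transcript, it was divided by its smallest divisor giving 0.5 to 1 times that transcript. This left 4 genes with whole reads and 5 without, so reads are approximate. COX20, SAFB, SAFB2 and MATR3 have more than 1 possible divisor, so their reads, lengths and counting intervals rest on the choice of the smallest. Intervals are exact 95% intervals (Clopper-Pearson for ratios, Poisson for levels) on rounded reads. RefSeq (GRCh38.p14) held 8 of the genes by symbol and 1 as a synonym. No coordinates were converted between builds.

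The genes, lists and naming rule were chosen with earlier results of these data known. Named were the 9 genes, rows overlapping them or starting within 1 Mb of HNRNPU (mean of 1 FPKM or more), the 2 highest and 2 lowest of each list, and the 5 rows nearest to HNRNPU. A gene that this rule names is not reported here. COX20P1, BSCL2, SNHG4, ZNF638, LMNA, LMNB1 and PTBP1 were added with their values known. Alternatives were pseudocounts of 0.1 and 5 FPKM, 3 rescalings and other minimum levels. Recovery of depth, reads and ratios was tested on simulated whole reads. The simulation did not cover the divisor step or reads divided between genes. Python 3.11.15, numpy 2.4.6, pandas 2.3.3 and scipy 1.17.1 were used.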

Additional observations from a re-analysis of the deposited data

How the results depend on the processing

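No paired analysis was possible because there was a single library per group, and for the same reason no replicate could be left out. HNRNPU and COX20 kept their direction under all 5 alternatives of pseudocount and scaling, which was fixed in advance. An equal pseudocount in both libraries cannot change the sign of any log2 ratio. The largest shift by a rescaling was -0.04, by the median ratio, far smaller than the log2 ratio of either gene. The alternatives therefore bear on the size of these ratios only. The log2 ratio of HNRNPU was -1.61 with 5 FPKM added and -1.62 when both libraries were given an equal FPKM sum. It was -1.69 when scaled by the median ratio. Each of these values lay outside its counting interval of -1.68 to -1.63. That of COX20 was 0.90 with 5 FPKM added, and an equal FPKM sum took it to 1.003, just past the 2-fold rule. HNRNPU-AS1, a low row, stood at -2.11 with 0.1 FPKM added and at -0.45 with 5 FPKM added. The median of the 6 relatives ran from -0.07 to -0.00, and 5 of the 6 kept their sign, while SAFB ran from -0.06 to 0.01.

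Genes at least 2-fold lower numbered 84 at 1 FPKM and with no minimum and 30 at 20 FPKM, against 60 at 5 FPKM. Genes at least 2-fold higher numbered 51 at 1 FPKM and with no minimum and 13 at 20 FPKM, against 25 at 5 FPKM. A minimum admits more or fewer genes by construction. The medians of the 5 lists kept their sign at a mean of 5 FPKM and with no minimum. Where every gene of a list already passed a minimum, the median could not change. That of the cytochrome c oxidase assembly factors went from 0.22 to 0.29 at a mean of 5 FPKM. The limits are the single library per group, the unknown use of strand at COX20 and the reads of COX20, HNRNPUL2, SAFB, SAFB2 and MATR3, which did not come out whole.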
